A study of Mus musculus with 2 samples.

Results

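The mouse TRIM family was followed in nuclear RNA of macrophages exposed to lipid A. A gene was taken as a member when its name was Trim followed by a number and at most 1 letter and it had at least 1 transcript annotated as protein coding. This gave 68 genes, out of 21901 genes with a protein-coding transcript and 55450 annotated genes on the main chromosomes. The rule used names and transcript classes and no measured value, though it was set with earlier results of these data known.

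The cells were bone marrow-derived macrophages of strain C57BL/6J, primary cells grown out from mouse marrow. They were held for 12 hours in medium with lipid A at 100 ng/ml, left without it for 12 hours, and given the same dose again for 25 minutes. Lipid A is the membrane anchor of bacterial endotoxin and is sensed by Toll-like receptor 4. RNA of the nucleoplasmic fraction (other labels call it the nuclear fraction) was freed of ribosomal RNA and sequenced as total RNA. The study supplied 1 group of 2 libraries, labelled biological replicates 1 and 2, which list the same mouse donor entry and started from 500 ng and 1 µg of RNA. No sample before or without lipid A and no other fraction was analysed here, so the values below are levels in restimulated cells, and no change caused by lipid A was measured. With 1 group no test between conditions could be run, and the spread given is that between these libraries, which may be technical. Replicate number and starting amount cannot be told apart.

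The libraries held 20196408 and 19588980 expected counts, and a gene with no count could hold up to 1.49e-05% and 1.53e-05% of them (3 counts of the total, counting error only). All 7 macrophage markers were at 1 TPM (a level corrected for transcript length and scaled to a fixed total per library) or more in both libraries, with summed levels of 3285 and 2952 TPM. Of 5 lymphocyte, 5 neutrophil and 4 muscle markers none reached 1 TPM in both, and Ly6g, Mpo, Elane and Cxcr2 were at 0. Of the dendritic cell, erythroid and mast cell, and stromal marker lists of 4 genes each, 1 gene per list reached it. The deposited TPM values were lower in replicate 2 for most genes, with a median log2 ratio of -0.28 over the 14587 genes with at least 10 counts in both. A member's TPM is therefore read beside that shift, and differences between the libraries are given on normalised counts.

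TRIM proteins share a RING finger that most use to attach ubiquitin, B-box zinc fingers and a coiled coil, followed by a variable end such as a PRY-SPRY domain that binds a target. Many restrict viruses or tune the signalling of RNA and DNA sensors and Toll-like receptors, and a subset is transcribed in response to interferon. In macrophages lipid A leads to type I interferon, whose signal ends on the interferon-stimulated response element (ISRE), a DNA site with repeated GAAA letters bound by interferon regulatory factors. Other members serve quite different ends, in chromatin silencing, muscle protein turnover, neurons and the germ line.

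Promoter sequences show where such letters stand in the members that hold them, whatever their level. RefSeq promoter windows (GRCm38.p6) of 250 bases before to 50 bases after an annotated start were found for 53 of the 68 members. They were searched on both strands for the ISRE core GAAANNGAA, which may overlap itself. The lines below give the stretch around the match in 10 of the 13 windows that held one, 5′ to 3′ on the strand of the gene and ending at most 30 bases past the start, with the matched letters in capitals. On the strand shown, most matches read as the reverse complement. They come from the cluster on chromosome 7 and from the ubiquitin ligases Trim25, Trim21 and Trim26.

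Trim30a (chr7:104465180-104465268, minus strand): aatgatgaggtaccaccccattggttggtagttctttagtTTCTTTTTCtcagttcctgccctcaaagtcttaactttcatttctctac
Trim30d (chr7:104507841-104507929, minus strand): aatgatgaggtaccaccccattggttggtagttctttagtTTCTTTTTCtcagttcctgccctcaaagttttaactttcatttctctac
Trim12a (chr7:104315466-104315524, minus strand): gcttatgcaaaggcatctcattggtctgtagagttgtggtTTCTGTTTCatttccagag
Trim12c (chr7:104353329-104353417, minus strand): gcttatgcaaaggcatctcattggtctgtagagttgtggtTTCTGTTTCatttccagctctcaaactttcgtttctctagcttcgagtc
Trim5 (chr7:104288106-104288194, minus strand): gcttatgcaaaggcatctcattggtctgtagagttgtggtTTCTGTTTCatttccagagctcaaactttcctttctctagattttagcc
Trim34a (chr7:104244428-104244486, plus strand): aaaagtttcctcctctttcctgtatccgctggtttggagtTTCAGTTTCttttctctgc
Trim34b (chr7:104329221-104329308, plus strand): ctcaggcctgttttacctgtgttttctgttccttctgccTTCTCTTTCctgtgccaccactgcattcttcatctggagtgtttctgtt
Trim25 (chr11:88999354-88999432, plus strand): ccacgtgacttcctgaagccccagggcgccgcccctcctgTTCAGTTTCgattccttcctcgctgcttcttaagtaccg
Trim21 (chr7:102565453-102565509, minus strand): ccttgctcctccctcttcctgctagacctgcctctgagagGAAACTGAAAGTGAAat
Trim26 (chr17:36836947-36837041, plus strand): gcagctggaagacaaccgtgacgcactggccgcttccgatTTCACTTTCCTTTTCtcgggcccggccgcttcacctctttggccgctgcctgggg

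The stretches of Trim30a and Trim30d differed at 1 of 89 bases. Those of Trim5 and Trim12a were equal over 59 bases, and those of Trim5 and Trim12c differed at 7 of 89. The windows of Trim2, Trim7 and a second annotated start of Trim30a, where the match began 3 bases past the start, are not shown. In the Trim30a window shown the match began 35 bases before the start, in Trim25 9 bases before it and in Trim26 159 bases before it, while in Trim34b it lay 211 bases upstream. Trim21 and Trim26 each held 2 overlapping matches. The core was found for 12 of the 53 members with a window (22.6%), against 9.58% of 16519 protein-coding genes with one. A gene was counted when any of its windows matched. By the list of interferon-inducible TRIM genes, the core was present for 10 of 14 genes (71.4%), and among the other members for 2 of 39, Trim2 and Trim7. With a further A at the 3′ end of the core, 9 of the 53 members still matched, against 4.02% of all these genes. An NF-kB motif, GGANTTTCC, was found for none of the 53 members and for 1.54% of all these genes. The 12 members with the core had median levels of 47.8 and 44.7 TPM, and 11 of them were at 1 TPM or more in both libraries. The 41 without it had medians of 0.44 and 0.56 TPM, with 18 at that level. Several of these windows are copies from duplicated genes and so are not independent, and a match is a string of letters and not a shown binding site.

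A few very abundant members carried most of the family's RNA, and the median member also stood above the median protein-coding gene. Of 68 members, 38 (55.9%) were at 1 TPM or more in both libraries, against 45.1% of protein-coding genes. At least 10 expected counts in both were held by 44 members, where the background was 51.9%. The median member stood at 2.55 and 1.65 TPM in replicates 1 and 2, and the median protein-coding gene at 0.57 and 0.47 TPM. Trim30a, Trim30d and Trim25 together made up 41.9% and 39.8% of the family's TPM, and the 20 highest members 91.9% and 92.8%. The 3 highest members were the same in both libraries, as were 13 of the highest 15 and all of the highest 20. All members together took 0.382% and 0.349% of the libraries' expected counts (95% Wilson intervals 0.379 to 0.385% and 0.347 to 0.352%).

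**Figure D1:**
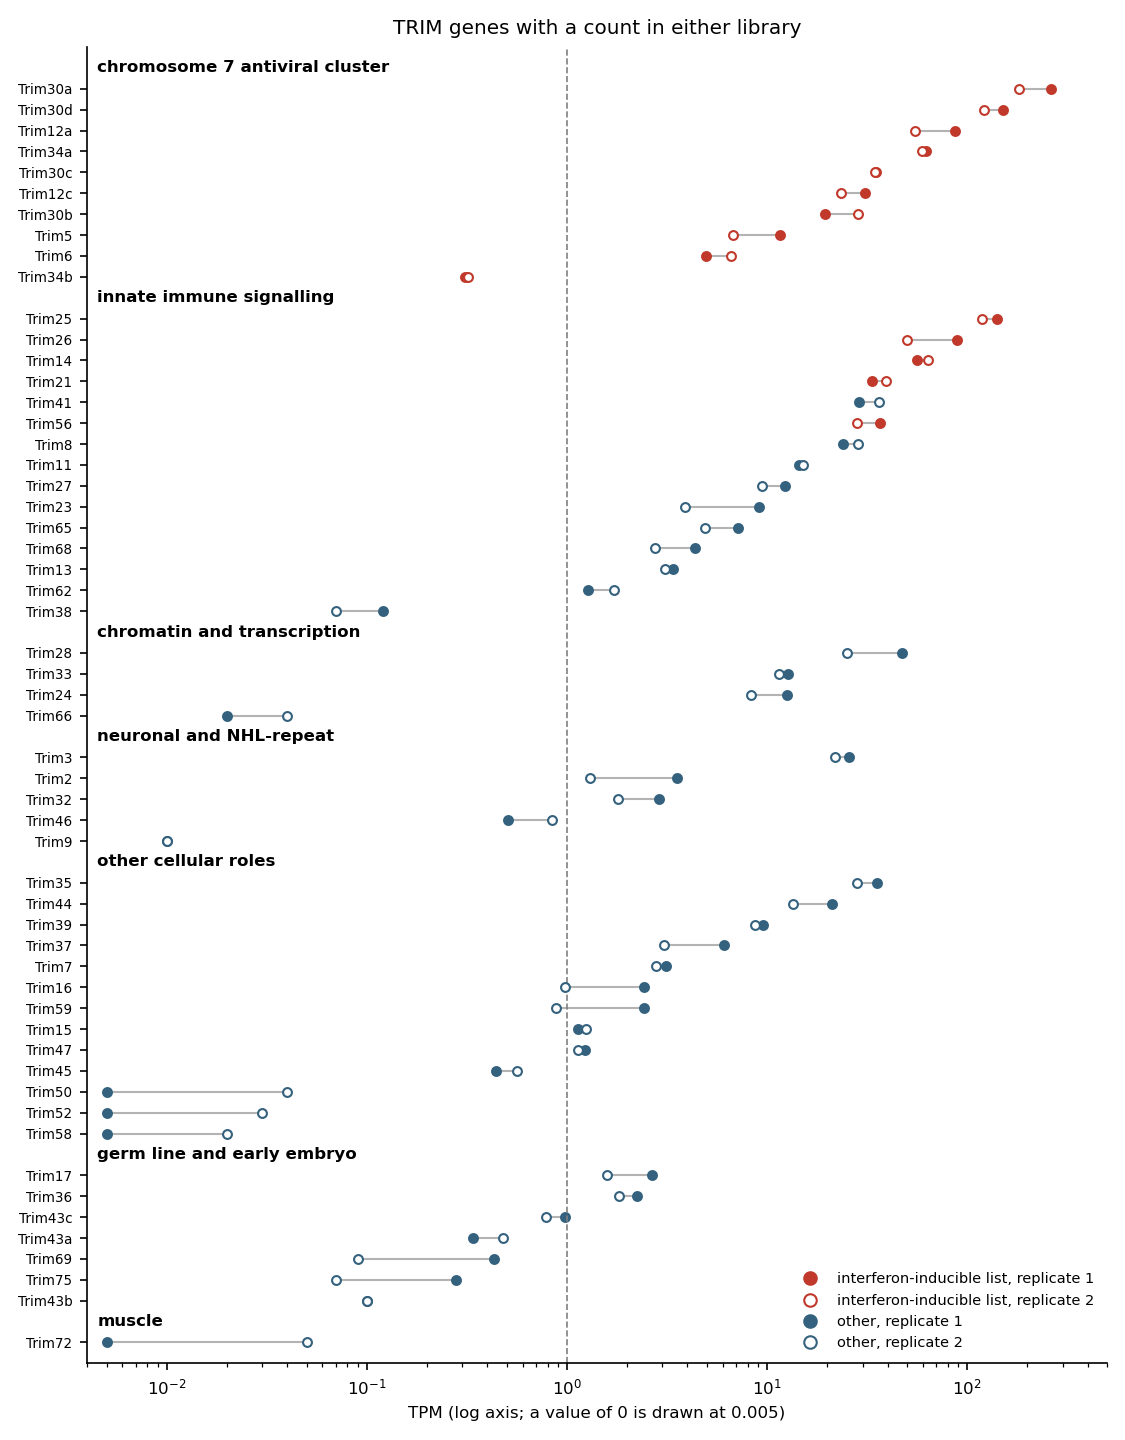
Level of each TRIM gene with a count in either library, in TPM on a log axis, grouped by role. Filled points are replicate 1 and open points replicate 2, red marks the interferon-inducible list, and the dashed line is 1 TPM; red points fill the upper end, and 14 of the 15 red genes lie right of the line.

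Members that interferon is known to induce held most of the family's RNA. Of the 15 on that list, 14 were at 1 TPM or more in both libraries, with list medians of 36.5 and 39.1 TPM. Among the other 53 members 24 (45.3%) were, near the 45.1% of all protein-coding genes, with medians of 0.98 and 0.84 TPM. The 15 genes took 79.4% and 80.0% of the family's counts and 77.2% and 77.1% of its TPM. They filled the 5 highest places, 9 of the highest 10 and 11 of the highest 15. This is a statement on levels in stimulated cells and not on induction, and the list was drawn up with earlier results of these data known.

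About 50% of the family's TPM came from 10 neighbouring genes on chromosome 7 (chr7:104218793-104507849), relatives of the retrovirus restriction factor TRIM5 that have multiplied in mice. Their share was 50.2% in replicate 1 and 48.9% in replicate 2. At 1 TPM or more in both were 9 of the 10, against 45.1% of protein-coding genes. Trim30a (ENSMUSG00000030921.17, chr7:104409025-104465193, minus strand), which restrains Toll-like receptor signalling to NF-kB, was the highest TRIM gene of all with levels of 262 and 181 TPM in replicates 1 and 2 (222 ± 56.9, SD, n = 2). Behind these levels stood 17619 and 12942 expected counts, and among protein-coding genes the gene lay at percentiles 99.4 and 99.1. Its neighbour Trim30d followed at 150 and 122 TPM. Both libraries of Trim30a were above both of Trim30d.

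The remaining members of the cluster spanned a wide range. Trim12a, a TRIM5-like gene, was at 87.1 and 55.2 TPM, Trim34a at 62.1 and 59.5 TPM, and the ranges of these neighbours in rank overlapped between the libraries. Trim30c stood at 35.0 and 34.7 TPM, Trim12c at 30.9 and 23.4 TPM and Trim30b at 19.5 and 28.4 TPM. Trim12c and Trim30b overlapped, whereas Trim30c was above both in each library. Trim5 was at 11.6 and 6.78 TPM. Trim6, which builds free ubiquitin chains that activate the kinase IKK-epsilon, was at 4.98 and 6.62 TPM, just under the lower Trim5 value.

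The exception was Trim34b. It held 9.90 and 11.3 expected counts, or 0.31 and 0.32 TPM, while its copy Trim34a held 2886 and 3066. Their coding sequences are 98.8% identical over 1455 bases, and 50.1% of the 31-base words in the coding Trim34a transcript with the most counts also occur in Trim34b, so reads from the shared part can be assigned to either gene. Trim34b was at 46.8 and 54.8 estimated counts in the second quantification, derived from the read files per the deposited file notes, against 4526 and 3860 for Trim34a, so the order of the pair was the same in both. The split is also uncertain among Trim5, Trim12a and Trim12c, whose coding sequences are 96.4 to 97.1% identical pair by pair and which share 54.7%, 40.9% and 47.4% of words with other genes. Trim30a and Trim30d were 90.3% identical over the bases that align, with 453 gap bases, and shared 9.30% and 9.13% of words with each other, and Trim30d overlaps the pseudogene Gm16464 on the same strand (25.2 and 19.2 TPM).

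**Figure D2:**
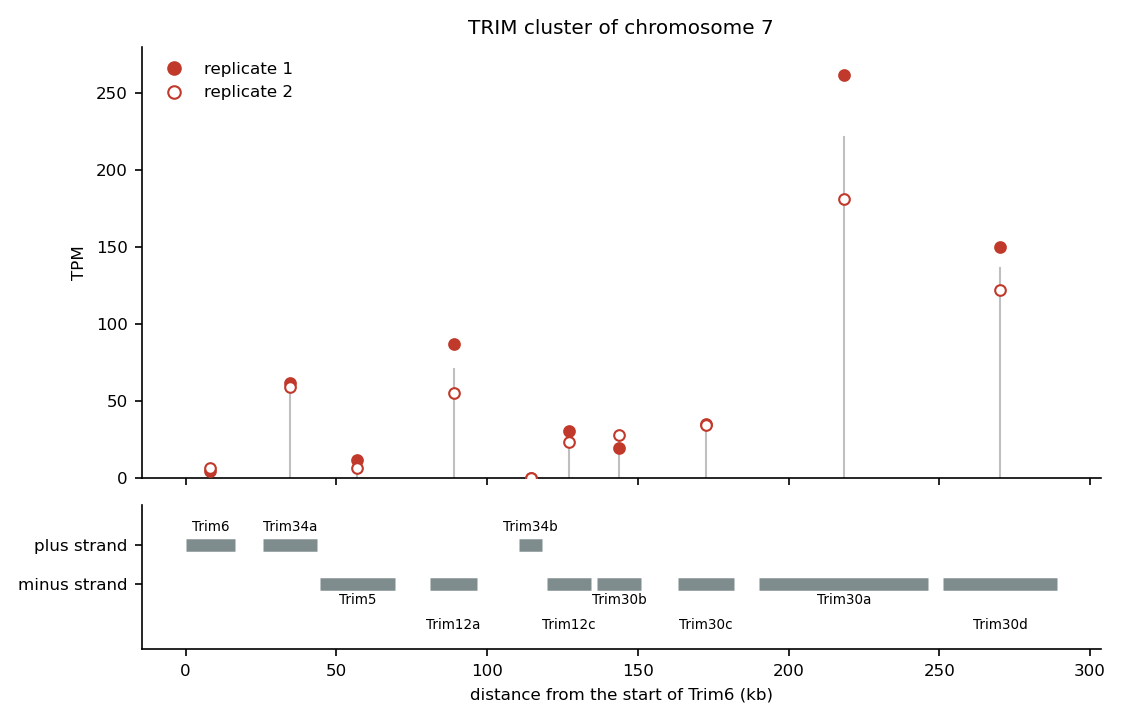
The TRIM cluster of chromosome 7: level in TPM of each gene (filled points replicate 1, open points replicate 2, line up to the mean) above its gene body and strand, plotted by distance in kb from the start of Trim6. Trim30a and Trim30d at the far end stand highest, and Trim34b lies at the axis at 0.31 and 0.32 TPM.

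Of the members that act in innate immune signalling outside that cluster, 14 of 17 (82.4%) were at 1 TPM or more in both libraries. The share of protein-coding genes was 45.1%, and the group medians were 12.3 and 9.44 TPM. Trim25 (ENSMUSG00000000275.16, chr11:88999376-89020293, plus strand), an E3 ligase known for its part in RIG-I activation, was at 142 and 119 TPM (130 ± 16.2, SD, n = 2), from 15087 and 13394 counts. Its levels were close to those of Trim30d, and the ranges of the pair overlapped. Trim26, an E3 ligase reported to act on nuclear IRF3, was at 89.0 and 50.3 TPM. Trim14, an adaptor at the mitochondrial protein MAVS that lacks a RING, was at 56.0 and 63.6 TPM. Nans lies on the opposite strand of Trim14 (6.70 and 7.26 TPM), and since no source used here states the strand setting, reads of such partners cannot be told apart.

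Trim21, the antibody receptor of the cytosol, stood at 33.6 and 39.1 TPM, and Trim56, an antiviral ligase tied to the STING and cGAS pathway, at 36.5 and 28.3 TPM. Trim41, which targets viral nucleoproteins, reached 28.7 and 36.2 TPM. Trim8, which promotes signalling from the TNF and interleukin-1 receptors through TAK1, reached 24.1 and 28.4 TPM. The ranges of Trim21, Trim56 and Trim41 overlapped. Within each library Trim21 lay above Trim41, while Trim56 was the highest of these in replicate 1 and the lowest in replicate 2. Trim8 lay below Trim21 and Trim41 in both libraries. Neither Trim41 nor Trim8 was on the interferon-inducible list. At the low end Trim62, a ligase for CARD9, was at 1.27 and 1.71 TPM, and Trim29 and Trim31 had no counts in either library.

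In the chromatin group 3 of 4 members (75%) were at 1 TPM or more in both libraries, against 45.1% of protein-coding genes. Trim28 (ENSMUSG00000005566.14, chr7:12999114-13031035, plus strand), the corepressor KAP1 that KRAB zinc-finger proteins bring to DNA, was at 47.5 and 25.2 TPM (36.3 ± 15.8, SD, n = 2). Its counts were 855 and 729, and its TPM in replicate 1 rested largely on short transcripts described further on. Trim33 was at 12.8 and 11.4 TPM and Trim24 at 12.6 and 8.34 TPM, with overlapping ranges. Both are paralogues of Trim28 that read histone tails, and Trim33 also ubiquitinates SMAD4. Trim66, a further paralogue best known from the germ line, held 4 and 7 counts. Zbtb45 lies opposite Trim28 (3.04 and 2.80 TPM).

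Of the groups tied to other tissues, the muscle and germ line members were mostly under 1 TPM. Of all protein-coding genes, 45.1% were at that level or above in both libraries. All 4 muscle members, which include the MuRF ligases of muscle protein breakdown, were under 1 TPM. Trim72 had the only expected counts among them, 2 in replicate 2, though the second quantification gave Trim63 129 and 83.6 estimated counts. Of 11 members known from the germ line and early embryo 2 passed 1 TPM in both, and the highest by mean, Trim17, was at 2.65 and 1.58 TPM, a range that overlapped that of Trim36 (2.23 and 1.81 TPM). Trim17 overlaps the histone gene Hist3h2a on the same strand (28.7 and 40.1 TPM). None of the 3 Trim43 genes, which are active in the early embryo, reached 1 TPM in both. In the neuronal and NHL-repeat group 3 of 7 (42.9%) passed, near the share of all protein-coding genes. Trim3, an NHL-repeat ligase studied in neurons, stood apart there at 25.8 and 21.9 TPM.

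Among the 15 members with other roles 7 (46.7%) were at 1 TPM or more in both libraries, near the 45.1% of protein-coding genes. Trim35, known also as haemopoietic lineage switch 5, was the highest at 35.6 and 28.2 TPM. In all, 13 members had no count in either library, namely Trim10, Trim29, Trim31, Trim40, Trim42, Trim54, Trim55, Trim60, Trim61, Trim63, Trim67, Trim71 and Trim80. A further 11 had counts but fewer than 10 in at least 1 library. Just above the 1 TPM line were Trim47 (1.23 and 1.13), Trim15 (1.13 and 1.25) and Trim62. Just below were Trim16 (2.44 and 0.98), Trim59 (2.44 and 0.88) and Trim43c (0.98 and 0.79). Trim16 and Trim59 were the members that crossed the line in replicate 1 and not in replicate 2.

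Few TRIM genes differed between the libraries, at a share near that of all genes. On TMM-normalised CPM (counts scaled to library size), the median log2 ratio of replicate 2 over replicate 1 was -0.04 over the 44 members with at least 10 counts in both, and 0.0045 over all 14587 such genes. A ratio of 2-fold or more either way was shown by 2 of 44 members, where 7.82% of all genes had one. Trim46, which organises microtubules of the axon, had 28 and 51 counts and was higher in replicate 2 by 1.01 on the log2 scale (exact binomial 95% interval of counting error 0.32 to 1.73); 4.88% of genes were at least 2-fold higher. Trim2, a ligase for neurofilament light chain, had 279 and 117 counts and a log2 ratio of -1.11 (interval -1.43 to -0.79); 2.93% of genes were at least 2-fold lower. In the second quantification neither gene passed 2-fold (0.64 for Trim46 and -0.88 for Trim2), and on deposited TPM Trim46 did not (0.72). On normalised expected counts Trim2 was the only member outside the middle 95% of all genes, which ran from -1.05 to 1.28.

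The next lower members in replicate 2 were Trim16 (-0.99), Trim23 (-0.95), Trim59 (-0.68) and Trim37 (-0.62). Trim23, which joins a ligase to an ARF-type GTPase, had 602 and 281 counts (interval -1.16 to -0.75). The next higher were Trim43a (0.80), Trim30b (0.74), Trim62 (0.71) and Trim6 (0.60). Trim43a rested on 12 and 18.8 counts, and its counting interval of -0.31 to 1.98 included no difference. Over the 16 members with a mean of 1000 counts or more the log2 ratio stayed between -0.37 and 0.74.

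Which library was higher for the interferon-inducible TRIM genes depended on the scale, while most genes of a reference interferon-stimulated list were higher in replicate 2 on normalised counts. Of the 14 with at least 10 counts, 7 were higher and 7 lower in replicate 2, and the median log2 ratio was 0.10. In the second quantification 12 of 15 were higher, with a median of 0.31. On deposited TPM 4 were higher and 10 lower, with a median of -0.28, as large as the shift of all genes. On normalised counts 24 of the 25 genes on the reference list, which holds no TRIM gene, were higher in replicate 2. Their median was 0.78, and 6 were at 2-fold or more. Of all 14587 genes 7344 were higher, and 4.88% were so by at least 2-fold. This list also depended on the scale. By deposited TPM, Ifit2, Oasl2, Oas2, Ifit1, Oas3, Rtp4 and Irf9 were lower in replicate 2, and the rest of the list was higher. The 7 macrophage markers were all higher as well on normalised counts, with a median of 0.36. By deposited TPM, Lyz2, Adgre1, Csf1r and Itgam were lower in replicate 2, and Cd68, Fcgr1 and Mertk were higher. On normalised counts Trim30a was lower in replicate 2 (-0.30) and Trim14 was higher (0.54). Trim25 (-0.03), Trim30d (-0.02) and Trim12a (-0.01) were near 0 and changed sign in the second quantification. The other 30 members had a median of -0.16. The difference between the lists was not tested, and the part of cell make-up or starting amount in it was not tested.

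**Figure D3:**
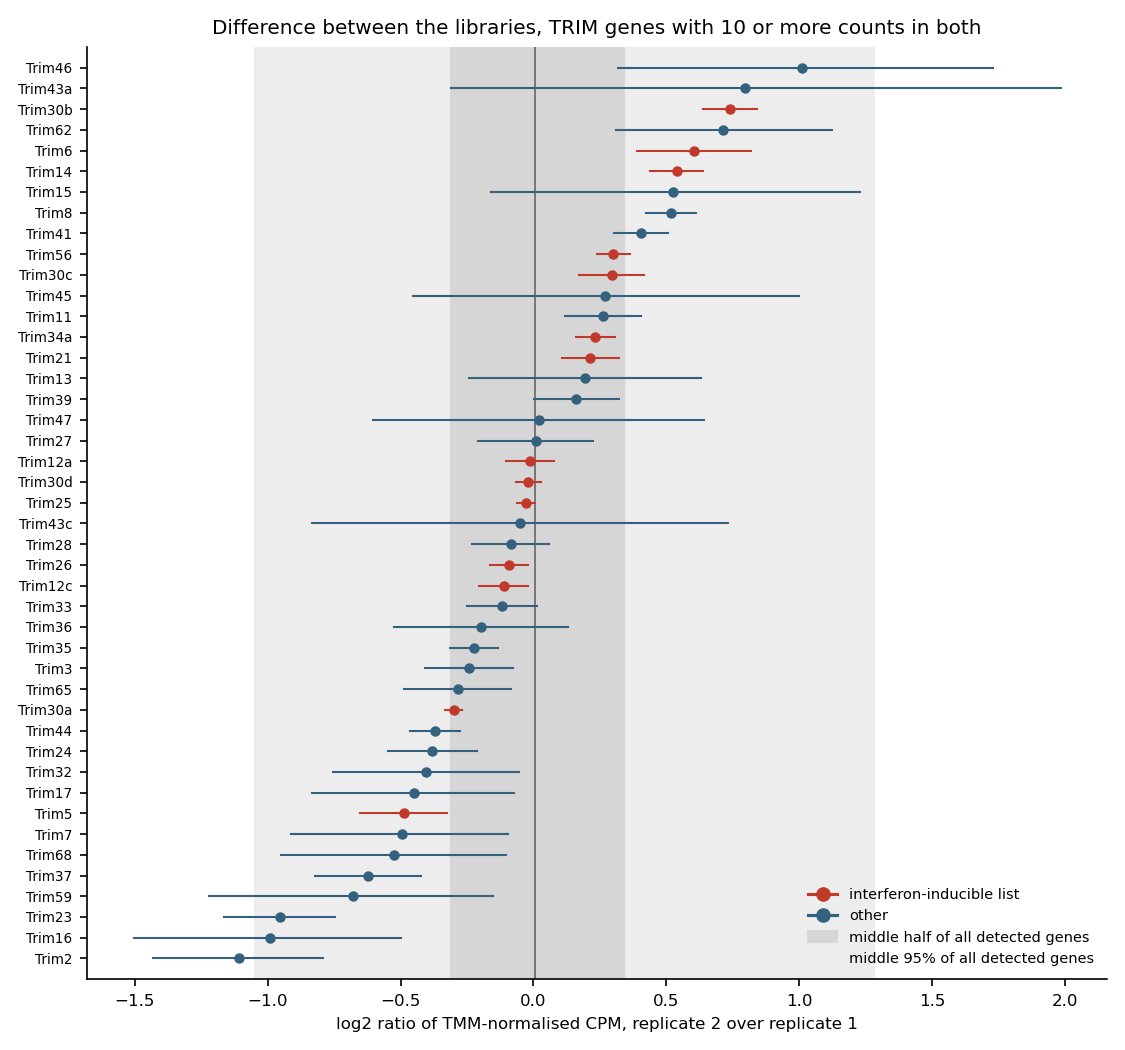
Log2 ratio of TMM-normalised CPM, replicate 2 over replicate 1, for the 44 TRIM genes with at least 10 counts in both libraries. Bars are exact binomial 95% intervals for counting error, red marks the interferon-inducible list and the grey bands show all 14587 genes; only Trim2 lies outside the wider band.

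Nuclear RNA holds unfinished and intron-retaining transcripts, and the transcript tables divide each gene's TPM among annotated isoforms. In most TRIM genes the TPM lay in transcripts of the protein-coding class. Over the 38 members at 1 TPM or more the median share in other classes was 6.35% and 9.49%, and over 9887 protein-coding genes at that level 22.0% and 24.0%. For 14 of the 38 no transcript of another class is annotated, so their share could only be 0. Among the 24 with one the medians were 22.5% and 32.4%, against 30.0% and 30.9% for 8134 genes. A share above 50% in both libraries was found for 3 of 38 members, Trim28, Trim26 and Trim3, and for 16.1% of protein-coding genes. By counts it was found for Trim26, Trim12a and Trim7, and for 11% of genes. In the second quantification 10 members passed, those 5 with Trim68, Trim24, Trim2, Trim39 and Trim33, against 27.5% of genes.

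Trim28 had 82.6% and 68.0% of its TPM in such transcripts. A retained-intron transcript of 565 bases, Trim28-203, took 22.2 and 7.66 TPM, whereas the coding Trim28-201 of 3245 bases was at 8.27 and 8.05 TPM. The coding isoform was thus close between the libraries in TPM and the short isoform was not. On this scale the median log2 ratio of all genes was -0.28, so equal TPM is not equal normalised counts. By expected counts, which do not divide by length, the share without a coding class was only 41.9% and 26.5%, since 497 and 536 of the gene's counts lay in Trim28-201.

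Trim26 had 76.5% and 64.1% in other classes, and here the shares by counts were as high, at 81.9% and 63.7%. Its processed transcript Trim26-209, of 2249 bases, was at 48.1 and 18.7 TPM, and the full coding Trim26-201 at 4.72 and 9.29 TPM. In Trim3 retained-intron transcripts dominated, and the share was 57.0% and 70.5% by TPM but 18.4% and 29.7% by counts. Trim12a had 60.0% and 49.1%, led in replicate 1 by the processed transcript Trim12a-206 of 562 bases (38.6 and 14.2 TPM), with the coding Trim12a-203 at 20.98 and 19.25 TPM. Trim68, a coactivator of the androgen receptor, had 45.7% and 59.6%, from 124 and 78 counts.

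Of the 3 most abundant members, Trim30d and Trim25 have no transcript of another class annotated, so their share outside the coding class could only be 0. Trim30a had 4.83% and 9.03% of its TPM outside that class, and 14.2% and 26.2% in the second quantification. Among the coding transcripts of Trim25, 99.0% and 94.5% of the TPM lay in Trim25-203. A short coding isoform can weigh as much as a noncoding one. Trim56-202, of 867 bases, took 15.8 and 6.65 TPM beside 20.8 and 21.7 TPM for the 9279-base Trim56-201, though it held 202 and 98.6 counts against 3737 and 4286. For Trim28, Trim26, Trim12a and Trim56, then, much of the gap in gene TPM between the libraries lay in 1 isoform each.

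**Figure D4:**
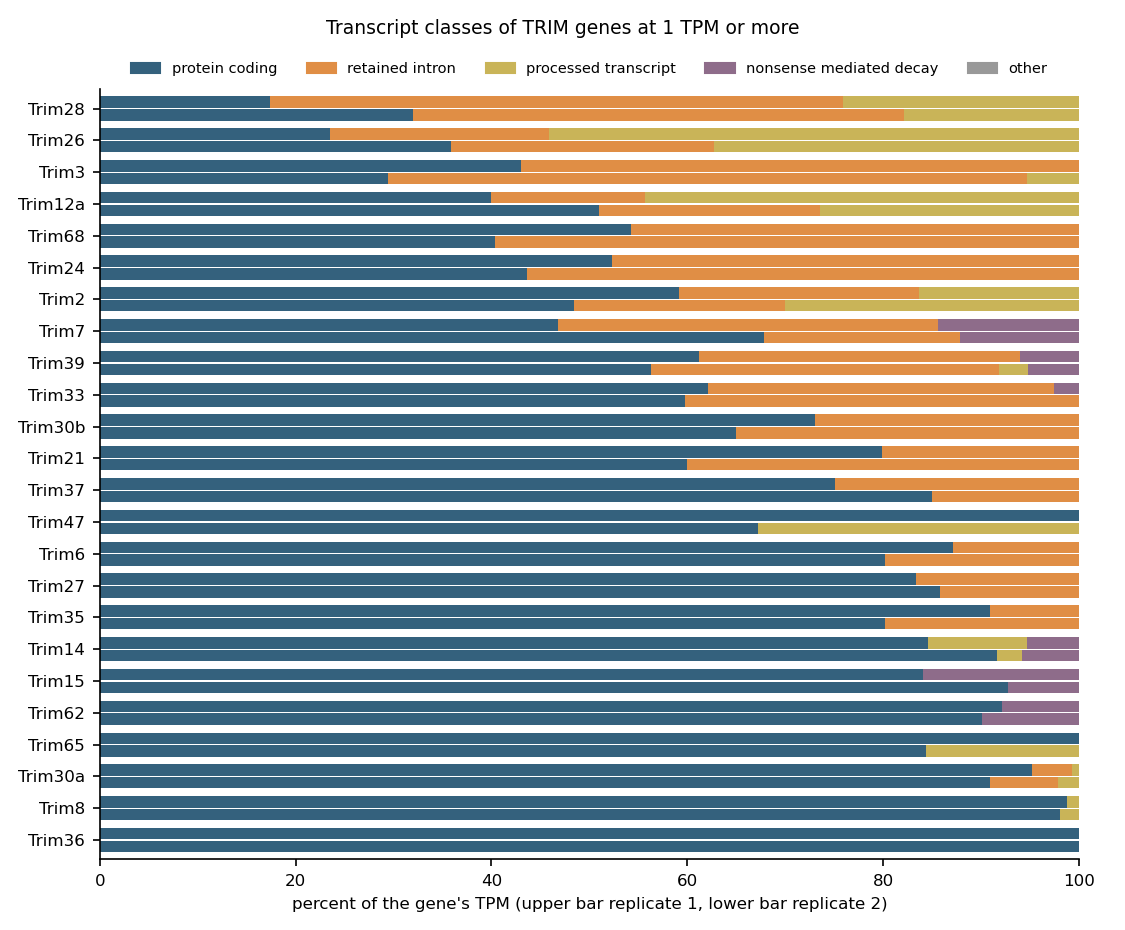
Share of each gene's TPM by annotated transcript class, for the 24 TRIM genes at 1 TPM or more that have an annotated transcript outside the protein-coding class; the upper bar is replicate 1 and the lower bar replicate 2. Trim28, Trim26 and Trim3 lie more than 50% outside the coding class in both libraries, and Trim30a and Trim8 lie almost wholly within it.

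Genes with the TRIM fold but other names, and genes that TRIM proteins act with, were also examined. Of 6 genes with the TRIM fold but another name 3 (50%) were at 1 TPM or more in both libraries, near the 45.1% of protein-coding genes. They were Pml, the organiser of nuclear bodies, at 64.0 and 78.4 TPM, Mid1, a microtubule-bound ligase, at 31.8 and 38.9 TPM, and Mefv, which encodes pyrin, at 17.6 and 20.4 TPM. Bspry, Mid2 and Rnf207 were under 1 TPM in both. All 12 genes of the RIG-I pathway in which TRIM25 acts were above that level. The highest were the transcription factor Irf7 (284 and 595 TPM), the kinase Ikbke (279 and 396 TPM) and Ddx58, which encodes RIG-I itself (146 and 178 TPM). Of these 12, 10 were higher in replicate 2 on normalised counts, with a median log2 ratio of 0.46 and 1 past 2-fold. Over all 14587 genes 7344 were higher, and 4.88% by 2-fold or more. Irf7, Ddx58 and Ifih1 are also on the reference interferon-stimulated list, and Irf7 (1.34) is the gene past 2-fold, so the lists are not separate.

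All 8 genes on a list of TRIM28 partners were at 1 TPM or more, against 45.1% of protein-coding genes. Their medians were 22.7 and 13.6 TPM. The list holds genes of KRAB-directed repression and also Trp53 and its ligase gene Mdm2, which are not part of that repression. The highest were the p53 ligase Mdm2 (145 and 146 TPM), Atf7ip, which stabilises the methyltransferase SETDB1 (46.3 and 30.5 TPM), and the remodeller Chd3 (29.3 and 36.1 TPM). In this list 7 of 8 were lower in replicate 2, with a median log2 ratio of -0.24 and none past 2-fold. All 6 partners of TRIM21, TRIM24 and TRIM33 were at that level too, with a median ratio of 0.05. The highest were the segregase Vcp (101 and 77.6 TPM), the macrophage transcription factor Spi1, or PU.1 (56.5 and 59.3 TPM), and Smad4 (13.96 and 11.3 TPM).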

How the data were processed

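Ribosome-depleted total RNA of the nucleoplasmic fraction was measured in 2 libraries of 1 group. The expected counts and TPM per gene and transcript were deposited by the authors, made on mm10 with GENCODE M21 per the deposited file notes, and their columns have the layout RSEM writes. A second deposited table gives estimated counts and TPM per transcript in the layout of kallisto. No source used here names the programs or the strand setting. Names, classes and coordinates came from GENCODE M21 and promoters from RefSeq.

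Expected counts of genes with at least 10 in both libraries were scaled with TMM factors (edgeR 4.0.16, R 4.3.3), and the log2 ratio of replicate 2 over replicate 1 was taken; 2-fold or more was counted as a difference, with no test. On simulated data of 14390 genes the median ratio was -0.0025 for unchanged genes, 1.04 for genes raised and -0.97 for genes lowered 2-fold. There 200 genes were changed, equally many each way, and the spread between libraries was set in advance. It checks only that the calculation returns the changes put in, and says nothing on the spread of the real libraries. DESeq2 1.42.0 size factors, the second table, posterior mean TPM, other minimums, a pseudocount and each library alone were tried as alternatives. The 26345 entries without a gene identifier were kept in library totals only. A transcript class other than protein coding was counted as without a coding class.

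Members, role groups and lists were chosen with earlier results of these data known. Genes named are the 15 members of highest mean TPM, the interferon-inducible list, the chromatin members, the 5 largest ratios each way, the 5 highest shares outside the coding class, the highest of each role group, members with no count, the 3 on each side of 1 TPM and the 3 highest of each other list. Other genes were named after their values were seen.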

Additional observations from a re-analysis of the deposited data

Results flagged for a closer look

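Several members that had fewer than 3 expected counts in the gene tables of both libraries held counts in the second quantification, which the levels above do not use. These were 249 and 129 estimated counts for Trim67 (replicates 1 and 2), 167 and 140 for Trim52, 129 and 83.6 for Trim63, 91.7 and 25.7 for Trim9, 59.2 and 32.1 for Trim71, 54.6 and 12.5 for Trim50 and 15.1 and 5 for Trim58. All lie above the 3 counts that a count of 0 allows. For Trim52 99.4% and 97.9% of them fell on the processed transcript Trim52-202, and for Trim63 80.1% and 85.0% on the retained-intron transcript Trim63-203. The counts of Trim67, Trim71, Trim50 and Trim58 fell wholly on a coding transcript. Scaled to library size, Trim52 was higher in replicate 2 (4.32 and 5.57 CPM), Trim63 was at 3.33 CPM in both, and the other 5 were higher in replicate 1. Which table is right was not tested.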

How the results depend on the processing

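With no control and 2 libraries, neither induction nor differences between conditions can be read from these values. The number of members at 1 TPM or more in both libraries was 38, lay between 27 and 49 with the second table, posterior means, rescaling or other minimums, and was 24 at 5 TPM; it was 38 without replicate 1 and 40 without replicate 2. The members' median log2(TPM + 1) was 1.61, and was 1.05 with the second table, 2.98 with that table rescaled to protein-coding genes, 2.80 with the gene table so rescaled, 1.10 with a pseudocount of 0.1 and 3.47 over members with 10 counts; each library alone gave 1.40 and 1.83. The median log2 ratio over members was -0.04 and became -0.30 with deposited TPM, which shifts all genes by -0.28. For interferon-inducible members 0.10 became -0.28 with TPM, 0.31 with the second table and 0.21 at 1 count or more, and for the others -0.16 became -0.31 with TPM. The number past 2-fold, 2, became 4 with TPM, 1 at 50 counts and 4 at 1 count, and the 2 in the second table were other genes (Trim9 and Trim50). The median share outside the coding class, 7.92%, was 3.82% by counts and 18.3% with the second table, and 6.35% and 9.49% in the single libraries. The share of library counts, 0.366%, was 0.331% with the second table and 0.465% of protein-coding counts, and 0.349% and 0.382% in the single libraries. The core with a further A at its 3′ end was found for 9 of the 53 members with a promoter window and 4.02% of all genes with one. The causes were not tested. Of 34 named ratios, 5 changed sign with the second table (Trim30d, Trim25, Trim12a, Trim26 and Trim28, all under 0.3 in size) and with deposited TPM 4 (Trim34a, Trim30c, Trim56 and Trim47). The highest 20 members were the same in both tables, as were 13 of the highest 15. No paired analysis was possible because the libraries form 1 group.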
